A study of Mus musculus with 5 samples.

Results

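The regions described here are the peaks that a mock pull-down with IgG gave between genes and that no Nr1d1 ChIP peak touched. They were taken from the authors' annotated IgG list as the peaks of class Intergenic whose interval shared no base with any interval of the annotated ChIP list. There were 7439 such peaks, out of 10215 intergenic IgG peaks and 17110 annotated IgG peaks, and they are called IgG-only intergenic peaks below. They made up 62.0% (Wilson 95% interval 61.2 to 62.9) of the 11990 IgG peaks of any class that were free of ChIP overlap.

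The study mapped Nr1d1 (REV-ERBα), a nuclear receptor that represses transcription in the circadian clock, in Th1 cells of wild-type C57BL/6 mice aged 4 to 6 weeks. Naive CD4 T cells were activated through CD3 and CD28 with IFNγ and IL-12 present and IL-4 blocked by an antibody, and were harvested after 3 to 4 days. There were 5 libraries, namely 3 of the Nr1d1 ChIP, 1 of the IgG mock and 1 of input DNA, and the Nr1d1 antibody is named in the labels of all 5, so the groups rest on the titles. The number of mice is not given in the labels, and peak lists carry no expression, so the cell type was not checked against markers. Each antibody has 1 deposited list over the same input, with no value per library, no read count and no fold. The depth is therefore unknown, no replicate check exists, no p-value was computed, and the intervals given cover the counting of peaks only.

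A mock pull-down uses an antibody with no intended target, and the chromatin it recovers serves as the background list of a ChIP experiment. Intergenic DNA holds distal regulatory elements, but also long stretches with few genes, repeats and decaying gene copies. Where Nr1d1 binds, it recognises the half-site AGGTCA, alone behind an A/T-rich stretch or in pairs, and recruits the NCoR-HDAC3 corepressor.

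The class Intergenic was checked against RefSeq gene positions on GRCm38.p6, which has the coordinates of mm10, the build that the files use. Of the 7439 peaks, 6490 (87.2%, 86.5 to 88.0) lay outside every RefSeq gene. Bodies of lncRNA genes held 602 (8.09%, 7.49 to 8.73), and bodies of protein-coding genes held 241 (3.24%, 2.86 to 3.67). ChIP-specific intergenic peaks, those of the ChIP list with no IgG overlap, lay outside every RefSeq gene in 86.4% (85.7 to 87.2) of cases. A RefSeq start window, the 250 bases before and 50 after an annotated start of transcription, was touched by 21 peaks (0.282%, 0.185 to 0.431), and 6 peaks lay wholly inside one. By this second annotation most, but not all, of the peaks lay between genes.

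The sequences of these windows are the stretches of IgG-only intergenic DNA that could be read here, and 8 are shown because they span the range of base composition found. Each is the part of the peak before the start of transcription, 5′ to 3′ on the strand of the RefSeq gene named. Capitals mark CG dinucleotides, except in Gm6866, where they mark the half-site in reverse complement.
LOC108167368: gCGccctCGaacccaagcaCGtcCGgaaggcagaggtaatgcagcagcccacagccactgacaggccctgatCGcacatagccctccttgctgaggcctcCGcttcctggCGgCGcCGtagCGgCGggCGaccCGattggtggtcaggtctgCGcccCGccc
Gm34301: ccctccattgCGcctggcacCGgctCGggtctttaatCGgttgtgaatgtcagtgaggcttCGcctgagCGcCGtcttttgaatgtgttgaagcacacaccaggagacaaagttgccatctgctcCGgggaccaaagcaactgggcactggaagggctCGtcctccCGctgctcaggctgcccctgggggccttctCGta
Cracr2a: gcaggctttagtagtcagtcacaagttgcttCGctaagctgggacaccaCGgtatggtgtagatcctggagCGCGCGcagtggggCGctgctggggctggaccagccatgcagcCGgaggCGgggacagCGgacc
Apol8: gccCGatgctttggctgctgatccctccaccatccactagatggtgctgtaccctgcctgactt
Gm31432: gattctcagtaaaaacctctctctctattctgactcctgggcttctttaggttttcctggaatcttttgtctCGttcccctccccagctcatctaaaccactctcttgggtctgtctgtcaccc
Gm33486: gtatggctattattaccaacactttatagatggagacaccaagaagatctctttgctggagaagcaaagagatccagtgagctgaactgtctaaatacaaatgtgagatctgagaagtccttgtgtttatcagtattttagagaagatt
Gm40204: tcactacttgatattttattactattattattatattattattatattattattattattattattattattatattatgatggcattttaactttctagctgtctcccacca
Gm6866: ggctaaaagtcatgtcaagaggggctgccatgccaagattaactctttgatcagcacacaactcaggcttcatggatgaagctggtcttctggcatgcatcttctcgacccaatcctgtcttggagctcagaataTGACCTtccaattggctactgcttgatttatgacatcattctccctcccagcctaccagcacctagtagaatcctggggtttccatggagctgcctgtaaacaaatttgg

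The most CG-rich of them was at LOC108167368, a protein-coding RefSeq entry on the plus strand (chr12:20614801-20614962). Its shown bases held 15 CG dinucleotides and 69.1% G and C, and its peak was 175 bp long with an FDR of 0.000281. Cracr2a, a calcium sensor that regulates store-operated calcium entry in T cells, had a 225 bp peak with an FDR of 0.00212 (chromosome 6, 127561201 to 127561424). The shown part of that peak held 64.4% G and C and 9 CG dinucleotides, and the authors' annotation set the peak 16663 bp upstream of another Cracr2a start. Apol8, a member of the apolipoprotein L family, had a peak of 150 bp with an FDR of 0.00155 (chromosome 15, 77756926 to 77757074). At the lncRNA Gm34301 on chromosome X the shown bases held 11 CG dinucleotides (chrX:12001501-12001700).

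At the other end of the range, the shown bases at the lncRNA Gm40204 held 17.7% G and C and 0 CG dinucleotides (chr4:92241651-92241763), and its letters consist largely of a repeated ATT triplet. Those at the lncRNA Gm33486 held 36.9% G and C and 0 CG dinucleotides (chrX:105003901-105004049, minus strand). Gm31432 lay between these extremes with 47.6% (chr9:46389251-46389374). Gm6866 held 1 match of AGGTCA in its shown bases (chr7:41209776-41210020), at 47.8% G and C.

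Whole 300-base start windows were compared by base composition and short motifs, read on both strands. The 24 windows touched by IgG-only intergenic peaks had a median of 46.5% G and C (31.7 to 70.3), against 52.7% over all 32817 RefSeq windows. For the 24 windows touched by ChIP-specific intergenic peaks the median was 56.3%, and for the 12 touched by IgG peaks over a ChIP peak it was 63.7%. AGGTCA occurred in 4 of the 24 windows touched by IgG-only intergenic peaks (16.7%) and in 16.3% of all windows. TAGGTCA, which contains AGGTCA, occurred in 1 of the 24 (4.17%) and in 2.61% of all windows. CACGTG, the E-box bound by CLOCK and BMAL1, occurred in 0 of the 24 and in 7.15% of all windows, and TGACTCA, the AP-1 site, in 1 (4.17%) and 5.20%. A CA dinucleotide repeated 6 times was found in 0 of the 24 and in 1.01% of all windows. In the windows touched by ChIP-specific intergenic peaks AGGTCA occurred in 2 of 24 (8.33%). In those touched by IgG peaks over a ChIP peak it occurred in 2 of 12 (16.7%). These shares are descriptions of few windows, some of which overlap because a gene can have several starts. A window can lie largely outside its peak, with as few as 3 bases shared.

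IgG-only intergenic peaks were short, and few had an FDR printed as 0. Their median length was 175 bp (quartiles 125 and 225, range 100 to 650), on a grid of 25 bp. ChIP-specific intergenic peaks had the same median length, 175 bp (quartiles 150 and 250). IgG intergenic peaks over a ChIP peak had a median length of 250 bp (quartiles 200 and 325). The FDR, the authors' false discovery rate of a peak over the input, had a median of 0.0151 in IgG-only intergenic peaks and 0.000934 in those over a ChIP peak. It was printed as 0 for 398 of the IgG-only intergenic peaks (5.35%, 4.86 to 5.88), for 43.0% (41.2 to 44.9) of those over a ChIP peak, and for 17.1% of all annotated IgG peaks. IgG-only intron peaks were close to the intergenic ones, with a median length of 175 bp and 6.55% (5.77 to 7.42) at 0. The intervals of these shares cover counting only. The FDR took 92 different values in the IgG list and 629 in the ChIP list, so it was not compared between antibodies.

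Ties in the FDR were common. A single value, 0.0364, was shared by 809 IgG-only intergenic peaks (10.9%), and the next most common, 0.0151, by 498 (6.69%). The median FDR fell with length from 0.0289 at 100 bp to 0.000281 at 325 bp and was higher again in the few longer peaks, at 0.00155 for 24 peaks of 375 bp and 0.00332 for 15 peaks of 400 bp. An FDR printed as 0 was seen in 0 of 1911 peaks of 100 to 125 bp (upper Wilson limit 0.201%), in 25 of 2071 peaks of 150 to 175 bp, and in 159 of 437 peaks of 300 bp or more (36.4%, 32.0 to 41.0).

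The share of intergenic IgG peaks that met no ChIP peak differed by length and FDR. Over all 10215 intergenic IgG peaks it was 72.8% (72.0 to 73.7), against 70.1% of all annotated IgG peaks, 70.1% (68.8 to 71.3) of intron peaks and 51.0% (47.8 to 54.2) of promoter peaks. It fell from 88.7% (86.5 to 90.6) of peaks 100 bp long to 43.0% (38.7 to 47.5) at 300 bp and 18.4% (14.8 to 22.8) from 375 bp upward. By FDR it was 398 of 1593 (22.9% to 27.2%) where the FDR was printed as 0, 74.2% (72.8 to 75.6) above 0 and up to 0.01, and 88.6% (87.2 to 89.9) above 0.03. Length and FDR were related, and their separate parts in this share were not tested.

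**Figure D1:**
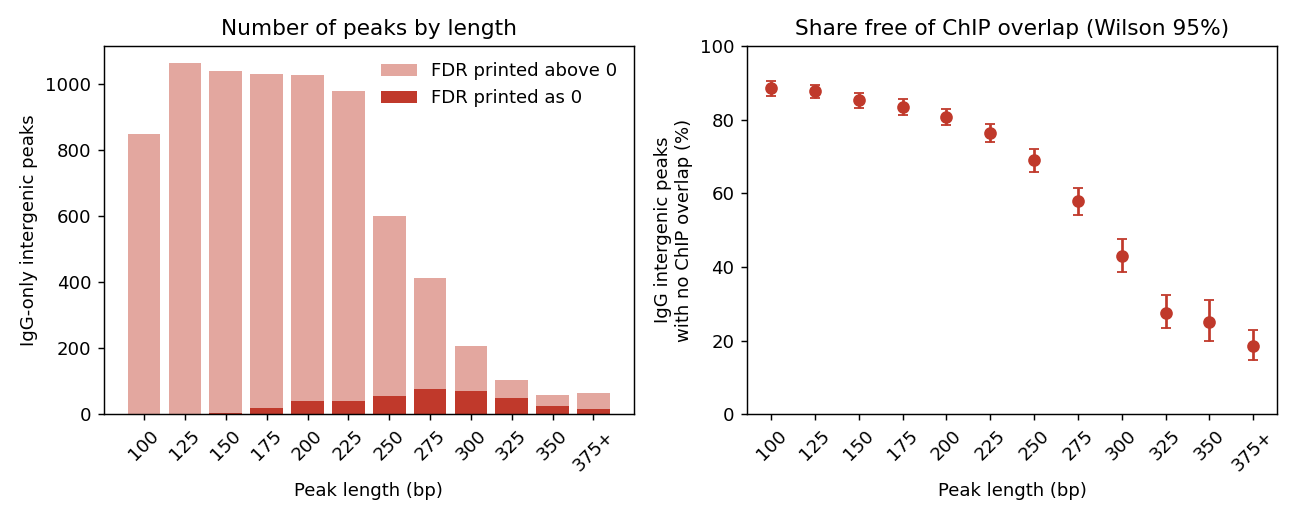
Left, number of IgG-only intergenic peaks by length in bp, with the part whose FDR was printed as 0 in dark red. Right, percentage of intergenic IgG peaks with no ChIP overlap at each length (points, with Wilson 95% intervals), which falls from 88.7% at 100 bp to 18.4% from 375 bp upward.

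The longest of the 398 IgG-only intergenic peaks whose FDR was printed as 0 measured 475 bp and lay 22829 bp upstream of the predicted gene Gm16330 (chromosome 8, 66611601 to 66612074), 74451 bases from the nearest ChIP peak. The next were 450 bp long, near Gm22469 (chromosome 14, 37289226 to 37289674) and near Gm28425 (chromosome Y, 41466826 to 41467274). Those that followed were nearest to Gm25564, Fam19a5, C330002G04Rik, 1700057H15Rik, Adam21, Aard and Redrum, with lengths of 375 to 425 bp. Fam19a5, which encodes a small secreted protein of the brain, had its peak 51993 bp upstream (chromosome 15, 87573026 to 87573449). The peak of Adam21, a membrane metalloprotease gene, lay 2563 bp upstream (chromosome 12, 81570851 to 81571224). All 10 had an FDR printed as 0, and the ChIP peak nearest to each was 3976 to 207801 bases away.

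Peaks with an FDR printed as 0 were found both close to and far from genes. Among those closest to a transcription start (TSS), one lay 1221 bp upstream of the vomeronasal pseudogene Vmn1r-ps24 (chromosome 6, 66755401 to 66755599). Those at Gm12285, Gm28649 and Gm29150 lay 1275 to 1757 bp away. The farthest were 936490 bp from Gm24246, 870803 bp from Gm25365 (chromosome 9, 11909251 to 11909474) and 693930 bp from 1700101O22Rik (chromosome 12, 6686251 to 6686549). Those at 4933433F19Rik and Gm25602 were 658381 and 615400 bp away.

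IgG-only intergenic peaks lay mostly 10 to 100 kb from a gene start. The median distance to the nearest TSS was 55220 bp (binomial 95% interval of the median 52888 to 57426, quartiles 20020 and 126588). It was 51928 bp (49743 to 54053) for ChIP-specific intergenic peaks, 49581 bp (46339 to 52775) for IgG intergenic peaks over a ChIP peak, and 31024 bp (29350 to 32823) for IgG-only intron peaks. Within 10 kb of a TSS lay 1025 IgG-only intergenic peaks (13.8%), from 10 to 100 kb 4038 (54.3%), and beyond 100 kb 2376 (31.9%, 30.9 to 33.0). ChIP-specific intergenic peaks lay beyond 100 kb in 30.6% (29.6 to 31.6) of cases, an interval that overlaps the former, and IgG intergenic peaks over a ChIP peak in 28.5% (26.8 to 30.2). Beyond 500 kb there were 142 IgG-only intergenic peaks (1.91%, 1.62 to 2.25). The lowest distance was 1013 bp, and 1004 bp for ChIP-specific intergenic peaks, so the class held no peak within 1000 bp of a TSS. IgG-only intergenic peaks lay upstream of the nearest gene in 55.8% (54.7 to 57.0) of cases, ChIP-specific ones in 55.7% (54.6 to 56.8).

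**Figure D2:**
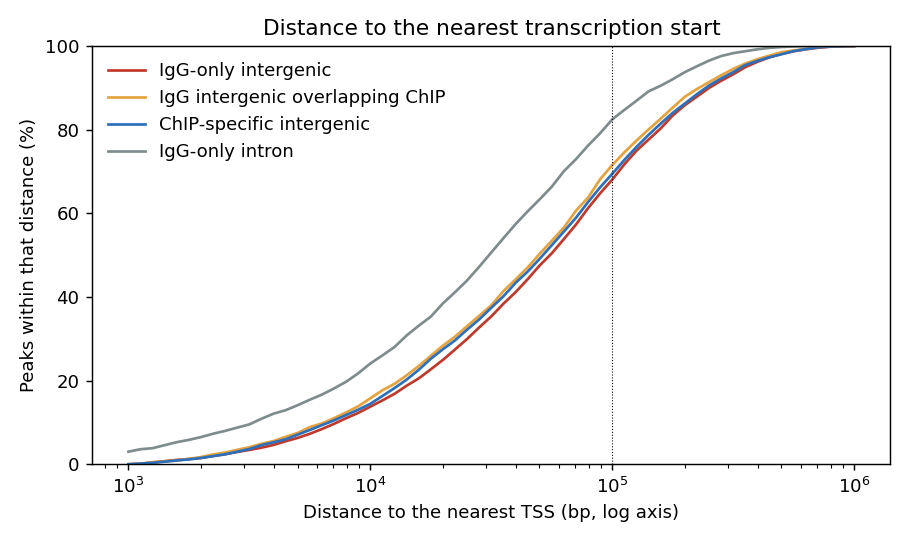
Cumulative percentage of peaks within a given distance of the nearest TSS (bp, log axis) for 4 sets of peaks, with a dotted line at 100 kb. The curves of the 3 intergenic sets run close together, with medians of 49581 to 55220 bp, and IgG-only intron peaks lie nearer to a TSS at a median of 31024 bp.

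Chromosome X held the most IgG-only intergenic peaks, 923 (12.4%, 11.7 to 13.2). X also held 11.02% (10.56 to 11.50) of all annotated IgG peaks. The share on X was 11.38% (10.71 to 12.08) for ChIP-specific intergenic peaks and 11.24% (10.12 to 12.47) for IgG intergenic peaks over a ChIP peak. A large share on X was thus not confined to IgG-only intergenic peaks. Since chromosomes differ in gene content, numbers were also divided by the length outside RefSeq genes. All peaks of a set were counted, also those inside RefSeq genes, and the length was not corrected for assembly gaps. On that scale X had 7.89 peaks per Mb, against 5.04 over the numbered chromosomes together. Chromosome 8 followed with 7.19 per Mb (494 peaks), then chromosome 18 with 6.95 (345 peaks), chromosome 12 with 6.42 and chromosome 15 with 6.41. The lowest values were 2.35 per Mb on chromosome 2 (204 peaks) and 1.14 on chromosome Y (100 peaks). ChIP-specific intergenic peaks had 8.06 per Mb on X and 8.24 on chromosome 8, and 3.22 and 1.78 on chromosomes 2 and Y. Across the 19 numbered chromosomes the densities of both sets had a Pearson r of 0.93 and a Spearman rho of 0.88. These are descriptions over chromosomes that share the input library, the reads' alignment and the annotation. With the number of RefSeq genes per Mb, the density of IgG-only intergenic peaks per between-gene Mb had a Pearson r of -0.17 and a Spearman rho of -0.40.

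**Figure D3:**
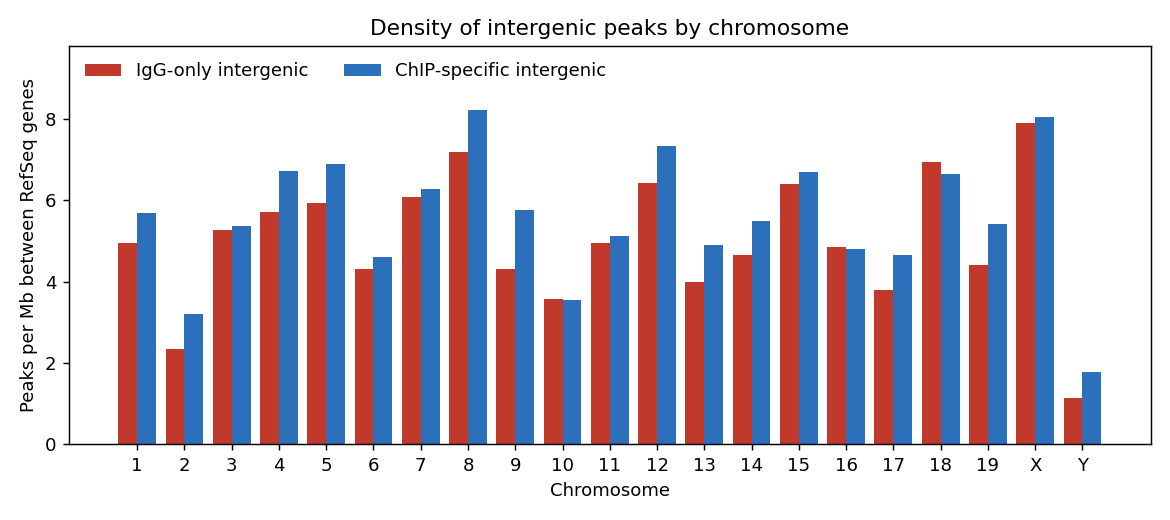
Intergenic peaks per Mb outside RefSeq genes on each chromosome (bars, 1 list per antibody and so no error) for IgG-only peaks in red and ChIP-specific peaks in blue. Both are high on chromosomes 8 and X, at 7.19 to 8.24 per Mb, and low on chromosomes 2 and Y, at 1.14 to 3.22.

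Peaks on X lay nearer to genes than those of the numbered chromosomes pooled. Their median distance to a TSS was 31746 bp (28531 to 34805), against 62203 bp (59729 to 65104) on the numbered chromosomes, and 13.7% (11.6 to 16.0) against 35.1% (33.9 to 36.2) lay beyond 100 kb. Single chromosomes varied widely, and the medians of chromosome 7 (29895 bp) and Y (16624 bp) were below that of X. ChIP-specific intergenic peaks gave 30762 and 58003 bp for X and the numbered chromosomes. The share on X was 16.0% (14.4 to 17.8) among IgG-only intergenic peaks with an FDR above 0.03, 10.04% (8.96 to 11.2) among those above 0 and up to 0.01, and 11.8% (47 of 398) among those printed as 0. Peaks on X had a median length of 200 bp, against 175 bp on the numbered chromosomes. Of the peaks on X, 19.2% (16.8 to 21.8) had another IgG-only intergenic peak within 10 kb, against 13.7% (12.9 to 14.5).

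Chromosome 2 had the lowest share of intergenic IgG peaks without ChIP overlap among the chromosomes, 62.2% (56.8 to 67.3). On chromosome 16 it was 77.7% (72.9 to 81.9), and on X 74.7% (72.2 to 77.1). Contigs outside the chromosomes held 5 IgG-only intergenic peaks, 2 of them on contigs with no ChIP peak.

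The boundary of the set was examined at the peaks closest to it. The median distance to the nearest ChIP peak was 30301 bases (29226 to 31526), and 1124 IgG-only intergenic peaks (15.1%, 14.3 to 15.9) were more than 100 kb from one or on a contig without one. Within 1 kb of a ChIP peak were 184 (2.47%, 2.14 to 2.85), and 20 were under 100 bases away. The 3 closest had 1 base between them and a ChIP peak. They were nearest to Dnah5, an axonemal dynein (chromosome 15, 28820451 to 28820749), Wdfy3, an adaptor of selective autophagy (chromosome 5, 102254651 to 102254874), and Amot, the angiomotin gene (chromosome X, 145443126 to 145443374). The next lay 26 bases from a ChIP peak and were nearest to Gm5257 and Serpine2, a serine protease inhibitor. On the other side, the smallest overlap of an IgG intergenic peak with a ChIP peak was 24 bases, and 221 overlapped by under 100 bases. The first 5 of those with 24 bases were nearest to Cldn1, a tight junction protein (chromosome 16, 26333426 to 26333624), RP23-333I7.1, Gm22251, Dsg1c and Gm26911. The median overlap was 224 bases, so most peaks on either side lay well away from the boundary.

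**Figure D4:**
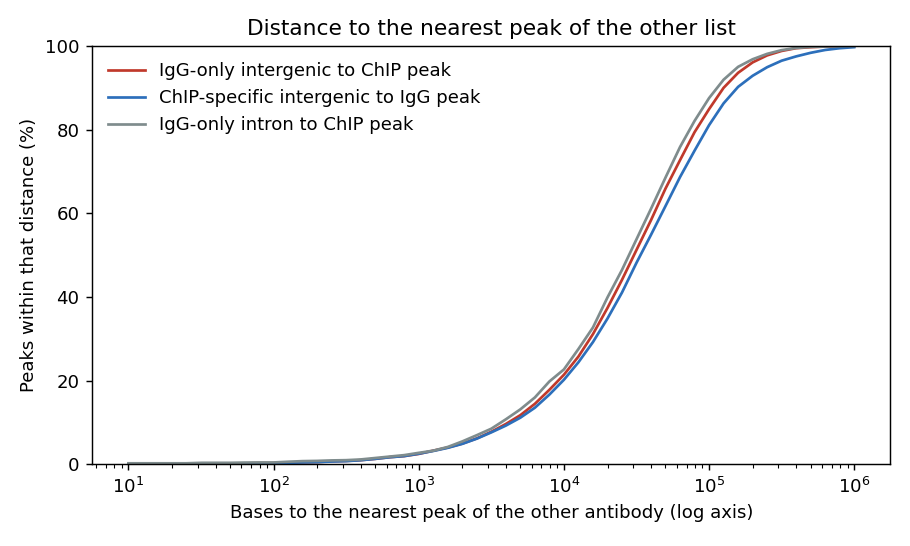
Cumulative percentage of peaks within a given number of bases of the nearest peak of the other antibody (log axis) for IgG-only intergenic, ChIP-specific intergenic and IgG-only intron peaks. IgG-only intergenic peaks had 2.47% within 1 kb and a median of 30301 bases, and ChIP-specific intergenic peaks had 2.52% within 1 kb of an IgG peak.

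Distances of ChIP-specific intergenic peaks to the IgG list were of the same order, with a median of 33701 bases (32401 to 34701) and 2.52% (2.21 to 2.89) within 1 kb. The lists searched differ in size, at 17110 IgG and 19584 ChIP peaks, so these distances are given side by side only.

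IgG-only intergenic peaks were spread widely, with few local groups. The median distance to the nearest other one was 49051 bases, 1064 (14.3%, 13.5 to 15.1) had another within 10 kb, and 124 (1.67%, 1.40 to 1.98) within 1 kb. With only peaks of an FDR up to 0.01 in both lists, 7.29% had another within 10 kb. Another of the same set lay within 10 kb for 15.4% of ChIP-specific intergenic and 16.5% of IgG-only intron peaks. For IgG intergenic peaks over a ChIP peak it was 4.72%, and the sets differ in size. Joined where gaps were under 10 kb, IgG-only intergenic peaks formed 6375 single peaks, 452 pairs, 41 runs of 3, 8 runs of 4 and 1 run of 5. The run of 5 spanned 29.2 kb near the ribosomal protein pseudogene Rpl17-ps9 (chromosome 7, 36128451 to 36157649), with FDR values of 0.00148 to 0.0423 and 2 ChIP peaks between its members. The tightest run of 4 spanned 4.02 kb at Cldn11, a claudin of myelin and Sertoli cells (chromosome 3, 31165376 to 31169399). It lay 15505 to 19380 bp from the TSS and contained 0 ChIP peaks. Another run of 4 near Gm14576 spanned 7.50 kb (chromosome X, 40892351 to 40899849), also with 0 ChIP peaks inside. A run of 4 near the homeobox gene Otx1 and Rpl15-ps1 spanned 16.5 kb (chromosome 11, 21977101 to 21993649), with 1 ChIP peak inside. In this run 2 of the peaks had an FDR printed as 0. The fifth of the named runs, with 4 peaks over 17.6 kb, lay near Gm14897 and Ube2dnl1 on chromosome X.

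The peaks were assigned to 4043 nearest genes in the authors' annotation. Of these genes 2460 had 1 peak, 1345 had 2 to 4, and 238 had 5 or more, and the last group accounted for 1579 peaks (21.2%). Of the 4043 genes, 2238 (55.4%) were also nearest to a ChIP-specific intergenic peak, which is 48.1% of the 4657 genes of that set. Predicted genes with a Gm number were nearest to 55.8% (54.6 to 56.9) of IgG-only intergenic peaks, 53.7% (52.6 to 54.8) of ChIP-specific intergenic peaks and 30.05% (28.5 to 31.6) of IgG-only intron peaks. RefSeq held a symbol for 72.5% of the 4043 genes, too few to compare gene types.

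Mostly predicted genes had the highest numbers of peaks. Gm26235 had 18, at 148790 to 783990 bp from its TSS. Pik3c3, the catalytic subunit of the class III phosphoinositide kinase, had 16, none nearer than 109510 bp. Gm23476 had 15 over 435 kb (chromosome 16, 7692751 to 8128074), and Gm23752 had 15 over 832 kb (chromosome 12, 5733426 to 6565924). 1700101O22Rik, Gm10247 and Gm23986 had 14 each and Gm24246 had 13. At 11 each followed 4931417E11Rik, 4933433F19Rik, Gm23416, Gm27525 and Gm9866. All 13 of these genes were also nearest to ChIP-specific intergenic peaks, 4 to 15 of them per gene.

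**Figure D5:**
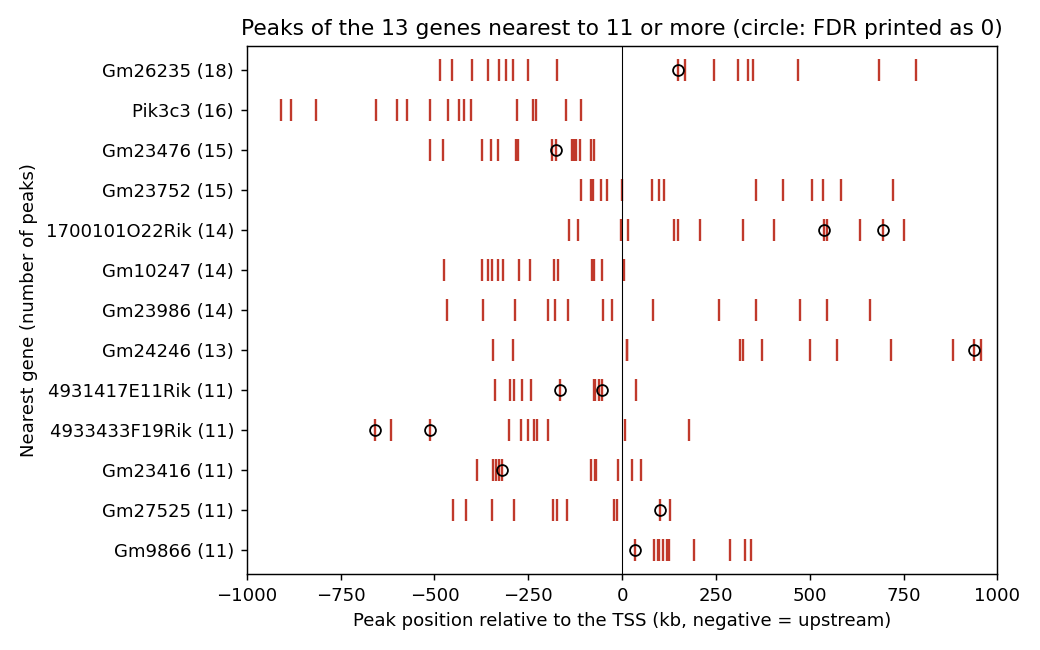
Positions of IgG-only intergenic peaks (red ticks) relative to the TSS of their nearest gene in kb for the 13 genes with 11 or more peaks, the number in parentheses. Circles mark an FDR printed as 0. The 16 peaks of Pik3c3 lie between 109510 and 909510 bp from its TSS, all on the upstream side.

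Among protein-coding genes, chosen after the counts had been seen, Irx1 and Rbfox1 had 10 peaks each. Irx1 is an Iroquois homeobox factor of development, and its peaks spread over 589 kb (chromosome 13, 71539451 to 72128274), the nearest 4289 bp from the TSS. Rbfox1 is a neuronal splicing regulator, with its nearest peak at 6297 bp and 9 ChIP-specific intergenic peaks. Csmd1, a large transmembrane gene of the brain, and Fam135b and Zdhhc25 had 9 each.

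Receptor gene families of the nose had peaks close to their genes. Olfactory receptor genes were nearest to 84 IgG-only intergenic peaks (1.13%) at 82 genes, of 1428 such genes and pseudogenes in RefSeq (5.74%). Over all protein-coding RefSeq genes, with symbols matched through RefSeq, the share with such a peak was 6.32%. Counts within a family used the authors' symbols without that match, so these shares are not strictly alike. The median distance of the 84 peaks was 5853 bp, against 55220 bp over all IgG-only intergenic peaks. ChIP-specific intergenic peaks numbered 83 (1.00%) at 76 olfactory receptor genes. The nearest IgG-only ones were 1284 bp upstream of Olfr1058 (chromosome 2, 86387601 to 86387799) and 1732 bp upstream of Olfr178 (chromosome 16, 58891876 to 58892024). Next came those 1867 bp upstream of Olfr1243 and 1908 bp upstream of Olfr307. Vomeronasal receptor genes were nearest to 57 IgG-only and 60 ChIP-specific intergenic peaks, with a median of 8100 bp for the former. The IgG-only ones were at 50 vomeronasal genes, of 645 in RefSeq (7.75%). The nearest IgG-only peaks of this family were at the pseudogenes Vmn1r-ps24, Vmn1r-ps75, Vmn1r-ps26 and Vmn2r-ps10, at 1221 to 1632 bp. Both families lie in dense clusters of related genes.

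Genes of the clock and of T helper cells were counted in the same way. Over all 21896 protein-coding RefSeq genes, 1383 (6.32%) were nearest to an IgG-only intergenic peak. Of the 22 core clock genes, 3 (13.6%) were: Hlf, a PAR bZIP factor, with 2 peaks, the nearer 13130 bp upstream (chromosome 11, 90403951 to 90404099, FDR 0.0185), and the nuclear receptor genes Rora and Rorb, which bind the same response elements as Nr1d1. The peak at Rora was 61536 bp upstream (chromosome 9, 68592126 to 68592374, FDR 0.0112) and 2776 bases from a ChIP peak, and that at Rorb lay 104800 bp downstream (chromosome 19, 18896126 to 18896474), with an FDR of 0.0364. None of the 28 Th1 genes had an IgG-only intergenic peak, and 2 of them had a ChIP-specific intergenic one. A ChIP-specific intergenic peak was nearest to 1 of the 22 core clock genes and to 7.88% of all protein-coding genes. Of 19 genes of other T helper cells, 2 (10.5%) had an IgG-only intergenic peak and 2 a ChIP-specific one. These lists are short, so the counts are descriptions only. The 2 with an IgG-only intergenic peak were Ikzf2 and Maf. Ikzf2, the Helios factor of regulatory T cells, had a 300 bp peak 3830 bp upstream with an FDR printed as 0 (chromosome 1, 69690926 to 69691224), 3226 bases from a ChIP peak. Maf, a factor of Th2 and follicular helper cells, had one 229181 bp upstream (chromosome 8, 115936851 to 115937099, FDR 0.00148), 151 bases from a ChIP peak.

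Lists of neuronal adhesion and guidance genes were chosen with earlier peak counts of these data known, so their shares are descriptions and no evidence that such genes stand apart. Of 18 long neuronal genes, 11 (61.1%) were nearest to an IgG-only intergenic peak, with 35 peaks in all, and 10 to a ChIP-specific intergenic peak, with 31. Csmd1 had 9 IgG-only and 10 ChIP-specific ones, and its nearest IgG-only peak lay 6276 bp upstream with an FDR printed as 0 (chromosome 8, 17541726 to 17541999). Lrp1b, a large lipoprotein receptor, had 4, the nearest 1439 bp upstream (chromosome 2, 42654951 to 42655124), and Opcml, an adhesion molecule of the IgLON family, had 6 against 1 ChIP-specific. Magi2, a synaptic scaffold, had 1, at 17346 bp downstream of the TSS. Of 93 cadherin and protocadherin genes, 15 (16.1%) had 40 peaks, with 8 at Cdh6 and 1 each at Pcdh19, Pcdh15 and Cdh18. Of 55 axon guidance genes, 17 (30.9%) had 36 peaks, the nearest being those of the ephrin receptor gene Epha7 at 1244 bp upstream (chromosome 4, 28811826 to 28811949), Sema3a at 3497 bp, Ephb3 at 5126 bp and Sema3f at 13900 bp. Teneurin, SLITRK, LRRTM and FLRT genes, of which 17 are in RefSeq, had 11 peaks at 6 genes, and the SLITRK genes Slitrk2, Slitrk6, Slitrk4 and Slitrk5 were the nearest of these. ChIP-specific intergenic peaks were at 15, 16 and 5 genes of these last 3 lists, in the same order, against 7.88% of all protein-coding genes. The sizes of these 3 lists are RefSeq symbols, and their genes with a peak are the authors' symbols.

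Larger families defined by name were also counted. Genes with a peak were counted by the authors' symbols and family sizes by RefSeq symbols, so the shares of a family are approximate. Zinc finger genes were nearest to 28 IgG-only intergenic peaks (0.376%) at 23 genes of 416 (5.53%, against 6.32% of protein-coding genes). The nearest were Zfp804b at 7464 bp, Zfp937 at 7548 bp, Zfp616 at 9605 bp and Zfp37 at 10866 bp. Genes with a Rik name were nearest to 411 (5.52%, 5.03 to 6.07) at 206 genes of 2300 (8.96%). The closest were 4933416I08Rik at 1062 bp, 4930503H13Rik at 1214 bp, 4930435C17Rik at 2755 bp and 1700031L13Rik at 3124 bp. Of the predicted genes, Gm14602, Gm11411, Gm24009 and Gm14293 were closest, at 1022 to 1103 bp. MicroRNA genes were nearest to 102 (1.37%) at 47 genes of 1182 (3.98%). The closest of these was 1252 bp upstream of Mir148a (chromosome 6, 51271101 to 51271224, FDR 0.0206), and those at Mir3471-2, Mir710 and Mir6378 were 3828 to 4164 bp away. A RefSeq hairpin was touched by 0 peaks. That count was largely set by the choice of class, as no IgG-only intergenic peak lay within 1000 bp of a TSS in the authors' annotation. Of ChIP-specific intergenic peaks, 0.435% were nearest to zinc finger genes, 5.62% to Rik genes and 1.27% to microRNA genes.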

How the data were processed

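Per the submitters' processing notes, reads were aligned to mm10, and BWA and HOMER were used. No version, no peak caller and no account of pooling of ChIP libraries is given in the sources used here. The deposited lists give each peak's length and an FDR (a q-value, per the file headers) printed to 6 decimals. The score in the authors' HOMER tables equalled the length for all annotated peaks, and intervals there are 1 base shorter than that length. The annotation tables left 1 IgG and 2 ChIP peaks without annotation, and these were not used.

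Overlaps, distances and Wilson or binomial 95% intervals were computed with scipy 1.17.1, pandas 2.3.3 and numpy 2.4.6 under Python 3.11.15. They were tested on simulated intervals, and bedtools 2.31.1 gave the same 7439 peaks. Names, gene positions and start windows came from RefSeq (GRCm38.p6). For families defined by a name pattern, genes with a peak were counted by the authors' symbols and family sizes by RefSeq symbols. These were not matched to each other, unlike the shares over all protein-coding genes. Distances to a TSS are the authors'.

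The peaks and gene lists were chosen with earlier results of these data known. Named peaks followed a rule: the first 10 by FDR and length, the 5 nearest to and farthest from a TSS at an FDR printed as 0, the 5 on either side of the overlap boundary, the 10 genes with the most peaks (13 with ties), the 5 runs with the most peaks (shortest first among equals), and for each list up to 4 genes with a peak, nearest to the TSS first. Peaks on chromosome 18 are given without coordinates. One peak that the rule selects is not reported here. Sequence content of whole peaks was not analysed here. Alternatives changed the overlap, the FDR limit, the chromosomes and the definition of intergenic.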

Additional observations from a re-analysis of the deposited data

How the results depend on the processing

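Of 32 values recomputed under alternatives, 21 stayed within the interval of the reported value (or, for the number of peaks, within 1.5 times of it), 11 moved, and 0 reversed. With an FDR limit of 0.01 for both lists, there were 3567 IgG-only intergenic peaks, 67.7% of the intergenic IgG peaks within that limit. Of the 7439 peaks, 3128 met the limit, so the 3567 also include peaks overlapped only by ChIP peaks above it. The 3567 had a median length of 225 bp, and 15.2% had an FDR printed as 0. Of them, 30.8% lay over 100 kb from a TSS, 10.2% were on chromosome X, and 7.29% had another within 10 kb. Fewer peaks enter by construction, and the limit takes out only IgG peaks with an FDR above 0, which raises the share printed as 0. The peaks overlapped only by ChIP peaks above the limit also bear on that share, and the 2 parts were not separated. The cause of the other shifts was not tested. With peaks set apart by 1000 bp or more, 71.0% of intergenic IgG peaks were free of ChIP, and 74.0% when at least 50% of a peak had to be covered. On the numbered chromosomes alone the median distance to a TSS was 62203 bp and 35.1% lay over 100 kb. Leaving out peaks inside RefSeq genes gave a median distance of 56132 bp. The planned 200 bp windows of sequence content were not run, as no genome was used here. No paired analysis was possible because each antibody has 1 list and no replicate could be left out. Depth is unknown, so a peak missing from the ChIP list is not shown to lack signal there.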

Other observations

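Segments of the antigen receptor genes, which T and B cells rearrange, were counted after the other lists had been seen. They were nearest to 24 IgG-only intergenic peaks at 20 segments, 8 IgG intergenic peaks over a ChIP peak, and 13 ChIP-specific intergenic peaks at 11 segments, and RefSeq holds 659 such symbols. Set against these 659, the 20 segments give 3.03%, against 6.32% of protein-coding genes with an IgG-only intergenic peak. The segments were counted by the authors' symbols and the 6.32% after a match through RefSeq, so the 2 shares are not strictly alike. The nearest IgG-only intergenic peak lay 1013 bp upstream of Igkv4-50, an immunoglobulin kappa segment (chromosome 6, 69702226 to 69702374, FDR 0.0319). In the T cell receptor alpha and delta locus, peaks lay 1992 bp upstream of Trdv4 (chromosome 14, 54072901 to 54073124), 2099 bp upstream of Trdv5 (chromosome 14, 54151201 to 54151399) and 4266 bp downstream of the start of Trac, the constant segment (chromosome 14, 54224676 to 54224899). Their FDR values were 0.0364, 0.0396 and 0.0364, and Trdv4 and Trdv5 had 2 IgG-only intergenic peaks each.

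The longest IgG-only intergenic peak, of 650 bp, was not among those with an FDR printed as 0. It had an FDR of 0.000934 and lay 14220 bp upstream of Pax2, a paired-box factor of kidney and eye development (chromosome 19, 44741501 to 44742149). The next were 575 bp near Tspyl5 (chromosome 15, 33658051 to 33658624) and 550 bp near Mir466f-4 (chromosome 13, 71531026 to 71531574), each with an FDR of 0.00298. Farthest from a TSS was a 125 bp peak 1008131 bp upstream of Gm23987 (chromosome 15, 70693776 to 70693899). The peak farthest from any ChIP peak on its chromosome lay 939826 bases away on chromosome Y (25056526 to 25056699), and the next 871876 bases away on X near Gm14332 (3264151 to 3264299). Prss56, a serine protease gene, was nearest to a peak 833676 bases from a ChIP peak (chromosome 1, 87177551 to 87177774).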
